A study of Mus musculus with 9 samples.

Results

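The genes described here are 39 mouse genes of fatty acid synthesis and desaturation, acyl-CoA activation, mitochondrial fatty acid oxidation, fatty acid binding and PPAR signalling, and lipid droplets, named as a set. They were picked by exact gene symbol in the deposited transcript tables, where 37 of the 39 names occur among 28848 genes with a gene ID. The other 2, Acsl3 and Fabp5, share an entry with a second gene and were found through its RefSeq accession. The transcript with the highest mean count over the 9 libraries stands for each gene. Of the 37 genes found by symbol, 36 had a count in at least 1 library and 32 were abundant enough to be tested. With Acsl3 and Fabp5, values of 34 tested genes are given.

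The libraries come from a mouse hepatoma cell line, an immortal liver tumour culture, sequenced from total RNA. There were 3 libraries after 6 h with 10 nM FICZ, 3 after 6 h with 50 uM tryptamine and 3 controls. FICZ is a photoproduct of tryptophan and a strong agonist of the aryl hydrocarbon receptor (AhR), and tryptamine is a tryptophan-derived amine whose action on that receptor the study examined. All 9 libraries carry Hepa 1 WT as their source and HC1C as their cell line. Controls are labelled untreated, but a vehicle is named in the protocol for treatment. Whether libraries were separate cultures is not stated. P-values therefore measure only the spread between these libraries. In bulk RNA, fewer cells of a type and less RNA per cell cannot be told apart.

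Fatty acids are built in the cytosol from citrate-derived acetyl-CoA. Acly and Acss2 make the acetyl-CoA, Acaca and Acacb carboxylate it, Fasn builds the chain with NADPH supplied in part by Me1, and elongases and desaturases modify it. Long chains are activated by acyl-CoA synthetases and then either burned in mitochondria after passing the carnitine shuttle or esterified to triglyceride. Triglyceride is kept in lipid droplets coated by perilipins and released by lipases. In liver these routes are controlled largely by SREBP, ChREBP and PPAR transcription factors, and activated AhR is best known for inducing the cytochrome P450 gene Cyp1a1.

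Total counts over genes ranged from 14161432 to 16700900 in FICZ libraries, 12972644 to 15526278 in tryptamine libraries and 11584520 to 14770106 in controls. Levels are given in CPM, the count scaled to a common library size. Cyp1a1 averaged 1004 ± 45.7 CPM with FICZ, 703 ± 43.8 CPM with tryptamine and 59.3 ± 4.28 CPM in controls (SD, n = 3 each). It rose with both treatments (adjusted p = 5e-09 and 1.66e-08 by edgeR). Of 12 hepatocyte marker genes 7 had a count and 4 were abundant enough to be tested. Among these, Trf was at 451, 426 and 462 CPM and Alb at 212, 224 and 254 CPM in FICZ, tryptamine and control means. Serpina1a, Fgb and Cps1 stayed at or below 4 counts in every library. Ttr, Apoa1, Apob, Hnf4a and Ahsg had none. Of 11 adipocyte markers only Lpl and Plin1 had a count. The lipoprotein lipase gene Lpl averaged 370 CPM with FICZ, 318 CPM with tryptamine and 352 CPM in controls. Its counted transcript is longer than that of Alb (4115 and 2043 nt). Per kilobase of transcript Lpl lay below Alb in each group, at 90, 77.3 and 85.6 against 104, 109 and 124 CPM. Plin1 had 6 counts in tryptamine replicate 2 and 0 in all other libraries.

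One control, replicate 3, was unlike the remaining libraries. Across genes, the correlation of its log CPM with any of them was 0.954 to 0.96, and that between any pair of them was at least 0.987. Against control replicates 1 and 2 it was higher for short transcripts (median log2 difference 0.46, 3703 genes up to 2000 nt) and lower for long ones (median -0.70, 2105 genes over 5000 nt). Counts of lipid genes that passed are therefore given with all 9 libraries and without control replicate 3. So are most log2 changes against control in the set. Group means of levels and counts of unadjusted p-values use all 9 libraries, as do most log2 changes of further lipid genes.

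Among the lipid genes the levels spanned a wide range. Per kilobase of transcript, the stearoyl-CoA desaturase Scd2, which puts the first double bond into saturated chains, was the highest, with 402 ± 6.26 CPM per kb with FICZ, 449 ± 4.57 with tryptamine and 382 ± 58.5 in controls. In controls it was followed by Acsl5, an acyl-CoA synthetase, at 157 ± 13.2, by the long-chain acyl-CoA dehydrogenase Acadl at 136 ± 22.6, by the droplet coat gene Plin2 at 112 ± 11.4 and by ATP-citrate lyase Acly at 106 ± 20.6 CPM per kb. Each of these 4 lay within the summed SDs of its neighbour in the order. Scd2 lay far above all of them. Scd1, the fatty acid elongase Elovl5 and fatty acid synthase Fasn came next, at 74.8 ± 16.8, 58.3 ± 4.92 and 40.6 ± 14 CPM per kb, and again did not differ from their neighbours beyond these spreads. In FICZ libraries Plin2 stood at 85.8 ± 0.345 CPM per kb, below Acly at 110 ± 2.82, and in tryptamine libraries at 91.3 ± 3.48, below Acly at 117 ± 2.75. Per kb, Plin2 also lay below Acly in control replicates 1 and 2, and above it only in control replicate 3.

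**Figure D1:**
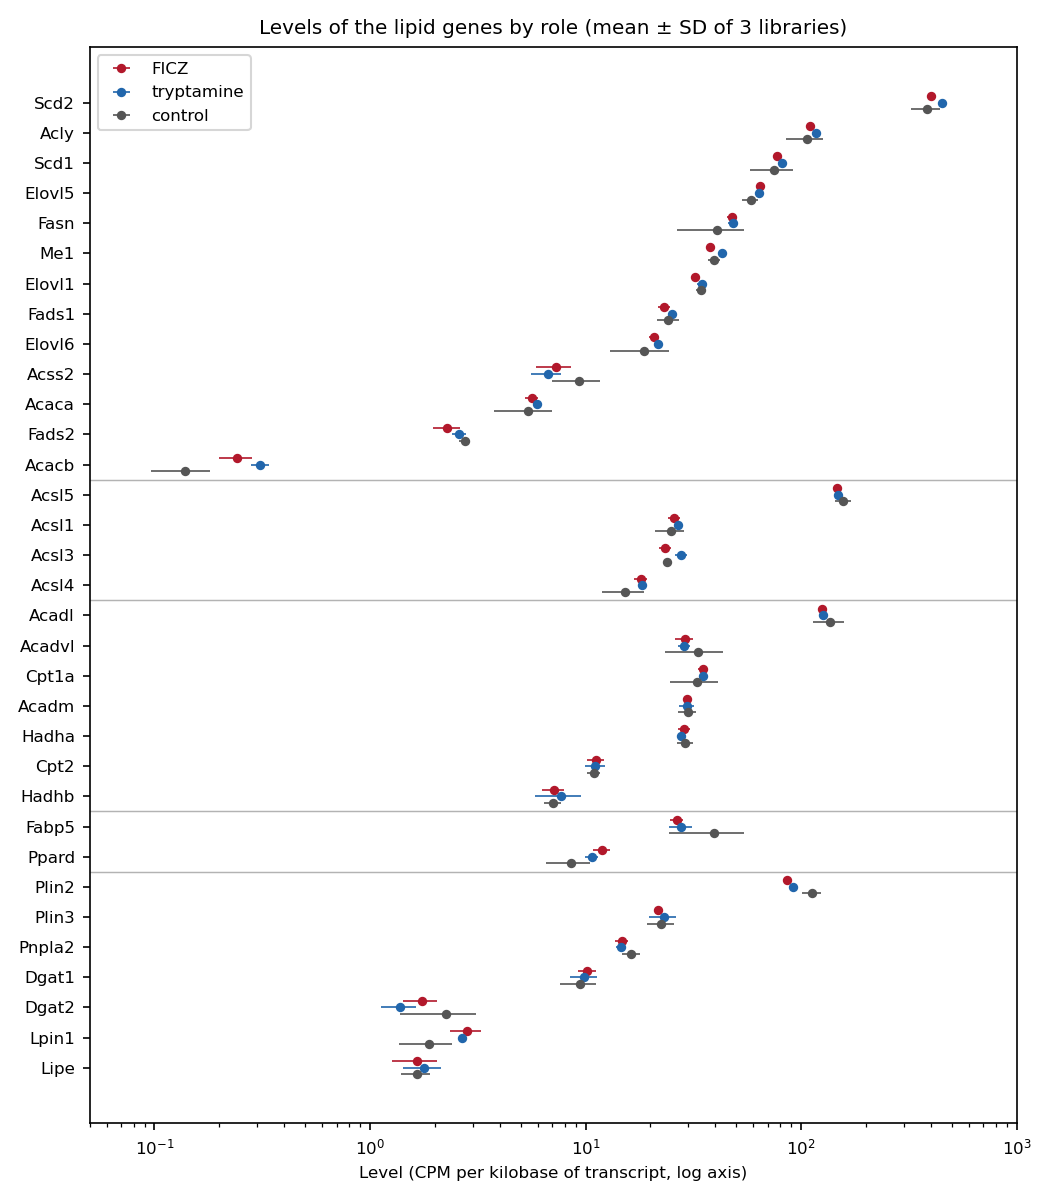
Level of each lipid gene in CPM per kilobase of transcript on a log axis (points, mean; bars, SD of 3 libraries) with FICZ, tryptamine and in controls, for 33 tested genes (Cd36 is left out), grouped top to bottom as synthesis and desaturation, acyl-CoA synthetases, oxidation, PPAR and binding, and droplets and triglyceride. Scd2 is highest in all 3 groups and Acacb lowest, and control bars are wide in Dgat2 (2.24 ± 0.861), Fabp5 (39.3 ± 15) and Fasn (40.6 ± 14 CPM per kb).

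At the low end, several genes of the set were at the limit of detection. The fatty acid receptor gene Ppara had 2 counts, both in tryptamine replicate 1. Pparg, the adipocyte fatty acid receptor, had 1 count in tryptamine replicate 3, 22 in control replicate 1 and 0 in the other 7 libraries. The lipase inhibitor gene Angptl4 and the glycerol-phosphate acyltransferase gene Gpam stayed at or below 4 and 10 counts in every library. Liver fatty acid binding protein, Fabp1, had 0 counts in all 9, which allows up to 0.179 to 0.257 CPM (3 counts, depending on the library, counting error only). The fatty acid transporter gene Cd36 was tested but had 11, 0 and 2 counts with FICZ, 6, 8 and 9 with tryptamine and 13, 10 and 0 in controls.

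Ratios within a library set isoforms side by side per length. Scd2 exceeded Scd1 by 5.08 to 5.34 times with FICZ and 5.47 to 5.51 times with tryptamine. In control replicates 1, 2 and 3 it did so by 4.81, 5.04 and 5.69 times. The cytosolic acetyl-CoA carboxylase Acaca exceeded Acacb, the form tied to mitochondria, by 21.3 to 27.3 times with FICZ and 16.9 to 20.5 times with tryptamine. In control replicates 1, 2 and 3 it did so by 71.9, 40.1 and 20.3 times, on 12, 19 and 18 Acacb counts. For both of these ratios, controls overlapped treated libraries only through control replicate 3. Plin2 exceeded Plin3, a droplet coat that is also cytosolic, by 3.82 to 4.08 times with FICZ, 3.41 to 4.79 times with tryptamine and 4.81 to 5.39 times in controls.

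With all 9 libraries, 0 of the 32 tested lipid genes passed in FICZ against control, where edgeR's quasi-likelihood test with Benjamini-Hochberg adjustment over 12343 genes called 0.113% of genes, all higher. Unadjusted p-values under 0.05 were found for 3 higher genes (Acacb, Ppard and Lpin1) and 1 lower gene (Plin2), against 3.52% and 4.63% of all genes. DESeq2's Wald test called 1, Plin2, against 0.0729% of genes lower and 0.365% higher. The median log2 change of the set was 0.01, against -0.01 over all genes. Without control replicate 3, edgeR called 1 of the 32 lower and 0 higher, against 0.232% and 0.576% of 12510 genes. The called gene was Plin2. It was called in 2 further fits to these 8 libraries, DESeq2 (0.32% of genes lower) and edgeR with a correction for transcript length (0.304% of genes lower).

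Plin2 encodes adipophilin, the protein that coats lipid droplets in most cells outside fat tissue and whose level follows stored lipid. Its level was 161, 163 and 162 CPM in FICZ replicates 1, 2 and 3, 165, 177 and 175 CPM in tryptamine replicates, and 201, 198 and 237 CPM in control replicates. Every FICZ and every tryptamine library lay below every control, and all FICZ libraries lay below all tryptamine libraries. Plin2 fell with FICZ in the fit without control replicate 3, by a log2 change of -0.30 (SE 0.07, 95% interval -0.44 to -0.17, 0.812-fold, adjusted p = 0.0211 by edgeR's quasi-likelihood test). With all 9 libraries the log2 change was -0.39 (SE 0.09) and the adjusted p was 0.446, and the call was also made by DESeq2 with all 9 libraries (log2 -0.38, adjusted p = 0.0368). Tryptamine against control gave a log2 change of -0.30 (SE 0.09, adjusted p = 0.741, edgeR) with 9 libraries and -0.21 (SE 0.07, adjusted p = 0.501) without control replicate 3. FICZ against tryptamine gave -0.09 (95% interval -0.21 to 0.03, adjusted p = 0.937, edgeR) without control replicate 3, and the doses differ.

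The lower Plin2 counts were seen along its length. Of 13 Plin2 transcripts in the tables, which share reads, the log2 difference from the mean of control replicates 1 and 2 ran from -0.37 to -0.22 with FICZ and from -0.35 to -0.16 with tryptamine. In the authors' deposited table the transcript used here had a log2 change of -0.45 (adjusted p = 0.000697) with FICZ and -0.36 (adjusted p = 0.0711) with tryptamine, both over control. The authors' deposited table gives an adjusted p under 0.05 to 8 of the 13 transcripts with FICZ, all lower, and to 0 with tryptamine. The summed level of the hepatocyte markers was 790 to 816 CPM with FICZ, 778 to 799 CPM with tryptamine and 808 to 1026 CPM in controls. Its lowest values were in treated libraries, as for Plin2, with FICZ and control ranges overlapping. Of 10 fibroblast and stellate cell markers 8 had a count, and Lrat and Lum had none. Their summed level was 1632 to 1756 CPM with FICZ, 1630 to 1771 CPM with tryptamine and 1408 to 1704 CPM in controls. Among them the collagen gene Col3a1 had 65.6, 65.9 and 67.2 CPM with FICZ, 58.1, 51.3 and 59.6 CPM with tryptamine and 49.1, 52.2 and 36.3 CPM in controls. It passed as higher with FICZ without control replicate 3 (log2 0.39, adjusted p = 0.0453, edgeR) and not with all 9 libraries (log2 0.53, adjusted p = 0.499). Dcn, which encodes the matrix proteoglycan decorin, had 314, 309 and 316 CPM with FICZ, 328, 331 and 364 CPM with tryptamine and 377, 360 and 425 CPM in controls, with a log2 change of -0.24 with FICZ without control replicate 3 (adjusted p = 0.0848, edgeR). The part of these markers in the Plin2 result was not tested.

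**Figure D2:**
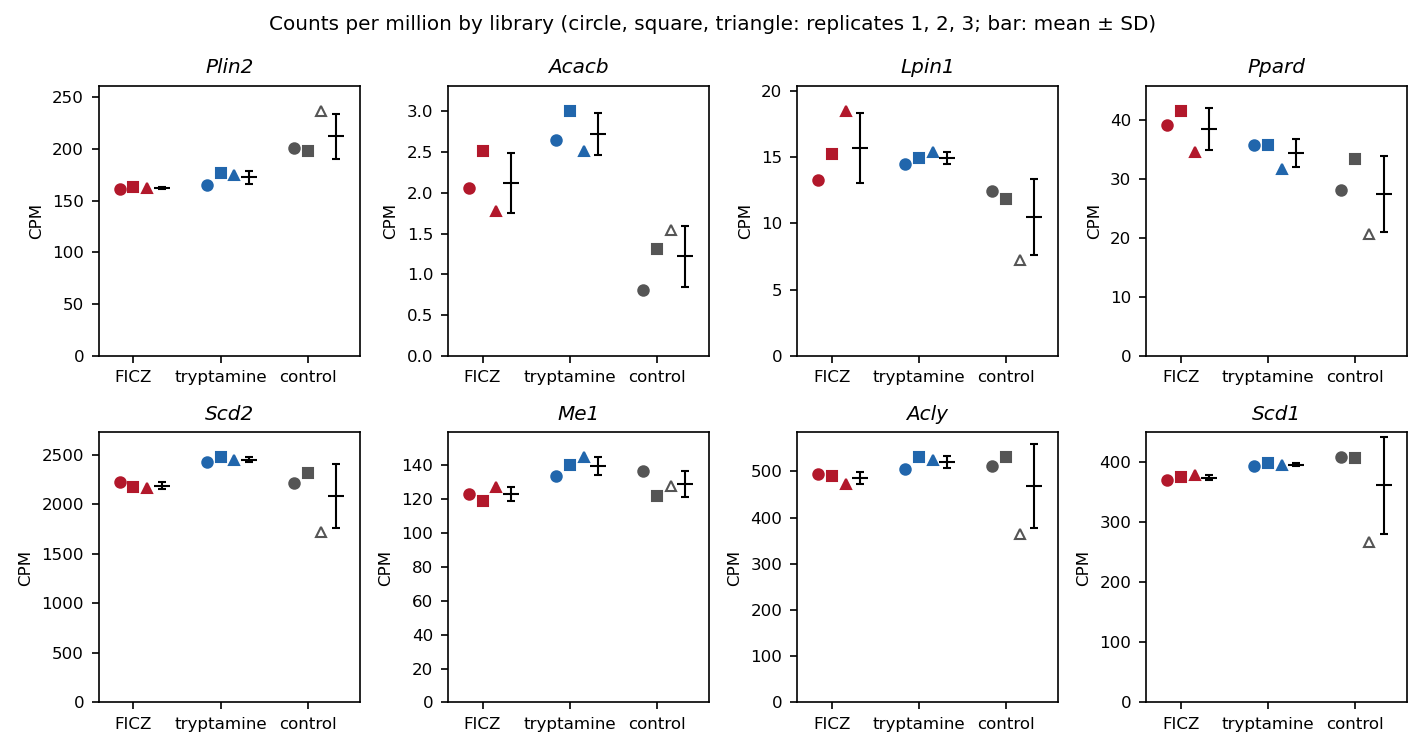
CPM in each library for 8 lipid genes, by group (FICZ, tryptamine, control; circle, square and triangle are replicates 1, 2 and 3, the open triangle is control replicate 3, and the bar is the mean ± SD of 3). Plin2 is between 161 and 163 CPM with FICZ, below the 198 to 237 CPM of controls, and Scd2 and Scd1 drop in control replicate 3.

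Promoter sequence upstream of the start is shown for Plin2, the gene that passed, and for Acacb and Lpin1, the genes with the largest positive log2 changes in FICZ against control with all 9 libraries. The 250 bases are from RefSeq on GRCm38.p6, at chr4:86670060-86670309 on the minus strand for Plin2, chr5:114165268-114165517 on the plus strand for Acacb and chr12:16610967-16611216 on the minus strand for Lpin1. They are written 5′ to 3′ along the gene and end just before its start. Capitals mark GCGTG, the core that the AhR dimer binds, here as its reverse complement, and the first 4 bases of an E-box (CACGTG) that runs across the Plin2 start.
Plin2: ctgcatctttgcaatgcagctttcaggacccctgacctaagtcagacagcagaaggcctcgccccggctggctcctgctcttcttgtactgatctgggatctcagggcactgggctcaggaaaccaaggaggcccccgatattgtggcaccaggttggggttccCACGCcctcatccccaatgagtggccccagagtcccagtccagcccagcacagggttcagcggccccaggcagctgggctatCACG
Acacb: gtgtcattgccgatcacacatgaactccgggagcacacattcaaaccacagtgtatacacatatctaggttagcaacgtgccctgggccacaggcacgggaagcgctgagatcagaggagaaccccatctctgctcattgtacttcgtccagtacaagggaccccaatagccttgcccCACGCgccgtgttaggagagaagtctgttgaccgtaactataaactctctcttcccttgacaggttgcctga
Lpin1: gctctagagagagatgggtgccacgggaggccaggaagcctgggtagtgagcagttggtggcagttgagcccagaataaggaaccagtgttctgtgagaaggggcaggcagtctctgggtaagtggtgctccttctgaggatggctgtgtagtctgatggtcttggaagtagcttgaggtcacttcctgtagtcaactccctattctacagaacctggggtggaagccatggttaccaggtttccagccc
In Plin2 the GCGTG core lies 86 to 82 bases before the start, in Acacb 72 to 68 bases before it, and in Lpin1 these letters do not occur in the window. Over windows of 300 bases, which add 50 bases after the start, 20 of 39 windows of 32 lipid genes hold GCGTG on either strand (51.3%). It is in 32.4% of 32851 mouse windows and in 50.4% of the 11670 windows of tested genes, so its share among the lipid genes is near that of expressed genes. CACGTG is in the windows of Elovl5, Lipe and Plin2 (7.69% of windows, against 10.2% for tested genes). The sterol regulatory element TCACNCCAC is in that of Acsl1 (2.56%, against 1.11%). The direct repeat bound by PPAR dimers is in 0 of 39 windows, against 0.0343% for tested genes. These matches describe letters and say nothing of binding.

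Among the 13 synthesis and desaturation genes, 0 passed in any of the 3 comparisons, with all 9 libraries or without control replicate 3. Acacb, whose product malonyl-CoA blocks carnitine palmitoyltransferase at the mitochondrial surface, had the largest positive log2 changes of the set. Its level was 2.06, 2.51 and 1.78 CPM with FICZ, 2.65, 3.01 and 2.51 CPM with tryptamine and 0.812, 1.31 and 1.54 CPM in controls. All treated libraries lay above all controls, on 12 to 42 counts per library. The log2 change with FICZ was 0.81 (95% interval 0.11 to 1.51, adjusted p = 0.6, edgeR) and with tryptamine 1.16 (0.48 to 1.85, adjusted p = 0.741). In the fit to 8 libraries these were 1.00 (adjusted p = 0.379) and 1.35 (adjusted p = 0.410). FICZ and tryptamine share the same controls, so the 2 comparisons are not independent.

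Elovl5, which lengthens polyunsaturated chains, had 184, 178 and 179 CPM with FICZ, 175, 185 and 175 CPM with tryptamine and 174, 165 and 147 CPM in controls. All treated libraries lay above all controls, although tryptamine replicates 1 and 3 did so by less than 2 CPM. The log2 change was 0.15 with FICZ and 0.14 with tryptamine, each with an SE of 0.09 (adjusted p = 0.603 and 0.741, edgeR), and 0.09 and 0.07 without control replicate 3. Elovl1, the elongase of very long chains, had 96.2, 103 and 97.6 CPM with FICZ, 99.8, 110 and 109 CPM with tryptamine and 105, 100 and 112 CPM in controls, and the 3 groups overlapped.

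The most abundant synthesis genes lost counts in control replicate 3. Scd2 had 2230, 2174 and 2167 CPM with FICZ, 2429, 2478 and 2445 CPM with tryptamine and 2218, 2315 and 1720 CPM in controls. Scd1, the desaturase typical of adult liver, had 370, 375 and 379 CPM with FICZ, 394, 399 and 395 CPM with tryptamine and 409, 408 and 268 CPM in controls. Acly had 495, 491 and 472 CPM with FICZ, 506, 530 and 524 CPM with tryptamine and 511, 531 and 364 CPM in controls. In these 3 genes control replicate 3 was the lowest of all 9 libraries. With all 9 libraries the log2 changes with FICZ were 0.07, 0.05 and 0.05 for Scd2, Scd1 and Acly. Leaving out control replicate 3 gave -0.05, -0.12 and -0.10, so the direction turned with 1 library, and the adjusted p was at least 0.466 in both fits (edgeR). Fasn had 467, 499 and 455 CPM with FICZ, 504, 459 and 477 CPM with tryptamine and 484, 484 and 242 CPM in controls, and its log2 change with FICZ was 0.23 with all 9 libraries and -0.03 without control replicate 3.

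Me1, the cytosolic malic enzyme that yields NADPH, had 123, 119 and 127 CPM with FICZ, 134, 140 and 145 CPM with tryptamine and 137, 122 and 128 CPM in controls. FICZ libraries overlapped the controls and lay below all tryptamine libraries. Acss2, the acetate-activating enzyme, had 4.55, 5.61 and 3.90 CPM with FICZ, 3.95, 5.09 and 3.87 CPM with tryptamine and 7.58, 4.54 and 6.00 CPM in controls. Its groups overlapped, and its best-counted entry is a stretch of 646 nt with 3 exons. The remaining synthesis genes Acaca, Elovl6, Fads1 and Fads2 had log2 changes of -0.24 to -0.08 with FICZ without control replicate 3, none past the threshold.

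None of the acyl-CoA synthetases passed in any comparison by edgeR. Acsl5 had 457, 458 and 470 CPM with FICZ, 458, 455 and 492 CPM with tryptamine and 474, 465 and 541 CPM in controls, with overlapping groups. Acsl3, a synthetase of the endoplasmic reticulum and nascent droplets, had 86.8, 92.1 and 98.2 CPM with FICZ, 103, 110 and 117 CPM with tryptamine and 94.5, 96.5 and 93.8 CPM in controls. Its tryptamine libraries lay above all others, and its entry is shared in name with Utp14b.

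Cpt1a and Cpt2 of the carnitine shuttle, the acyl-CoA dehydrogenases Acadl, Acadm and Acadvl and the trifunctional protein genes Hadha and Hadhb gave 0 called of 7 in every comparison. In the fit without control replicate 3 their log2 changes ran from -0.10 to 0.08 with FICZ and from -0.10 to 0.13 with tryptamine, with medians of 0.02 and 0.05. Acadl had 239, 232 and 237 CPM with FICZ, 245, 242 and 231 CPM with tryptamine and 228, 239 and 307 CPM in controls. Control replicate 3 was its highest library. Without it the 95% interval of the log2 change was -0.12 to 0.15 with FICZ and -0.09 to 0.17 with tryptamine.

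Ppard, the broadly expressed member of the fatty acid receptor family, had 39.1, 41.6 and 34.6 CPM with FICZ, 35.8, 35.7 and 31.7 CPM with tryptamine and 28.2, 33.4 and 20.7 CPM in controls. Every FICZ library lay above every control, while tryptamine libraries overlapped them. The log2 change with FICZ was 0.48 (SE 0.16, adjusted p = 0.6, edgeR) with all 9 libraries and 0.32 (SE 0.12, adjusted p = 0.3) without control replicate 3. Fabp5, a cytosolic fatty acid binding protein, had 25.3, 22.8 and 26.1 CPM with FICZ, 22.5, 26.4 and 28.8 CPM with tryptamine and 27.8, 29.4 and 52.7 CPM in controls. Control replicate 3 was far above the other 8. The log2 change with FICZ was -0.56 (adjusted p = 0.6, edgeR) with it and -0.21 (adjusted p = 0.609) without it. The authors' deposited table gives Fabp5 a log2 change of -0.64 with FICZ (adjusted p = 0.000772) and -0.58 with tryptamine (adjusted p = 0.0359), from all 3 controls. Its entry is shared in name with Gm3601.

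Of the genes that build and break down triglyceride, Lpin1, a phosphatidate phosphatase that makes diacylglycerol, had 13.3, 15.2 and 18.5 CPM with FICZ, 14.5, 14.9 and 15.4 CPM with tryptamine and 12.4, 11.8 and 7.20 CPM in controls. All treated libraries lay above all controls, FICZ replicate 1 by less than 1 CPM. The log2 change was 0.57 with FICZ and 0.50 with tryptamine, each with an SE of 0.20 (adjusted p = 0.6 and 0.741, edgeR), and 0.37 and 0.30 without control replicate 3. The authors' deposited list of 81 genes with higher transcripts after FICZ holds Lpin1 through 1 of its 10 transcripts, with a log2 change of 1.21. Their list of 22 genes after tryptamine holds none of the set by symbol. All 8 better-counted Lpin1 transcripts were lower in control replicate 3 than in the other controls, by log2 differences of -3.39 to -0.74. Against control replicates 1 and 2, their log2 changes with FICZ ran from 0.29 to 0.70. Dgat2, which makes triglyceride from diacylglycerol, had 3.91, 3.22 and 4.65 CPM with FICZ, 3.13, 2.54 and 3.68 CPM with tryptamine and 4.26, 3.65 and 7.29 CPM in controls, so its groups overlapped. With tryptamine its log2 change was -0.68 (adjusted p = 0.741, edgeR) with all 9 libraries and -0.34 without control replicate 3. Dgat1, Plin3, the triglyceride lipase gene Pnpla2 and the hormone-sensitive lipase gene Lipe had log2 changes of -0.16 to 0.28 with FICZ without control replicate 3, none past the threshold.

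In tryptamine against control, 0 of the 32 lipid genes passed with all 9 libraries, where edgeR called 0.0081% of genes higher and 0% lower, and 0 passed without control replicate 3, where it called 0.184% higher and 0.016% lower. Unadjusted p-values under 0.05 with all 9 libraries were found for 3 higher genes (Acacb, Scd2 and Lpin1) and 2 lower genes (Plin2 and Dgat2), against 2.09% and 3.04% of all genes. DESeq2's Wald test called 0, against 0.0972% of genes higher and 0% lower. The median log2 change was 0.09 with all 9 libraries and 0.01 without control replicate 3. In FICZ against control, 4 lipid genes lay wholly above and 1 wholly below the controls in all 9 libraries, which held for 8.2% and 7.43% of all genes. In tryptamine against control these counts were again 4 and 1, against 4.97% and 5.07%. Without control replicate 3 the counts above and below were 6 and 3 with FICZ, against 13.9% and 14% of all genes. With tryptamine they were 5 and 4, against 9.9% and 10.2%.

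**Figure D3:**
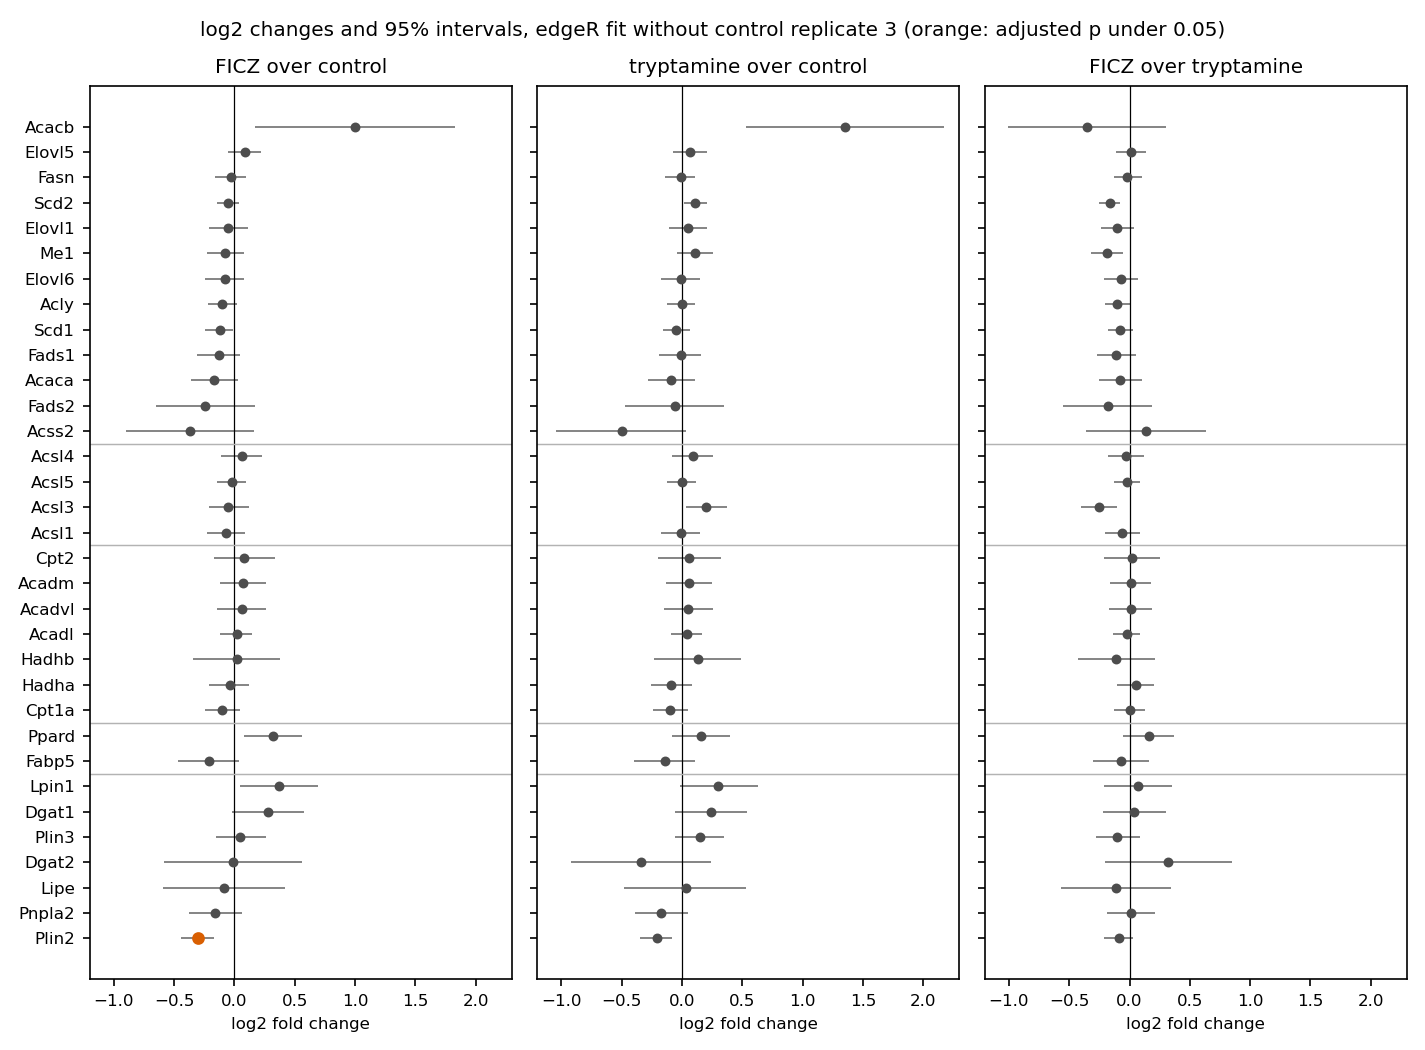
log2 fold change (point) and 95% interval (bar) of 33 lipid genes in FICZ over control, tryptamine over control and FICZ over tryptamine, from the edgeR fit without control replicate 3; groups of genes follow the same order of roles, and orange marks an adjusted p under 0.05. Plin2 in FICZ over control (-0.30) is the single orange point, most intervals span 0, and most points in FICZ over tryptamine lie a little left of 0.

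FICZ against tryptamine compares different doses, 10 nM and 50 uM, and its difference rests on no control library. With all 9 libraries 0 of the 32 genes passed, where edgeR called 0% of genes. Unadjusted p-values under 0.05 were found for 0 of the 32, against 0.745% of genes higher and 0.98% lower, and DESeq2's Wald test called 0, against 0.081% higher and 0% lower. Leaving out control replicate 3, which bears only on the common estimate of spread, edgeR called 0 of the 32, against 0.12% of genes higher and 0.016% lower. In 7 of the 32 genes (21.9%) all 3 FICZ libraries lay below all 3 tryptamine libraries, and in 0 above, against 5.72% and 5.66% of all genes. These were Scd2, Scd1, Acly, Me1, Fads1, Acacb and Plin2, of which 6 belong to the 13 synthesis and desaturation genes. Acsl3, found through a joint entry, lay below as well. In Fads1 the closest FICZ and tryptamine libraries were both at 84.6 CPM after rounding. In Acacb they were both at 2.51 CPM, so these separations are near ties. The differences were small: the median log2 difference was -0.10 over the synthesis genes and -0.04 over the set, against 0 over all genes. For Scd2 the log2 difference was -0.16 (95% interval -0.25 to -0.08, adjusted p = 0.199), for Acsl3 -0.25 (-0.40 to -0.10, adjusted p = 0.375) and for Me1 -0.19 (-0.32 to -0.05, adjusted p = 0.615), by edgeR without control replicate 3. In Acadl the same interval was -0.14 to 0.09.

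In the lipid genes too, the deviation of control replicate 3 followed transcript length. Of 11 tested genes over 4000 nt, 10 were lower in it than in the other controls, with a median log2 difference of -0.61, and Fasn was the lowest at -1.0. Of 23 up to 4000 nt, 9 were lower, with a median of 0.08. Across the 34 genes, Spearman's correlation of length with this difference was -0.70, as a description of 1 library. With all 9 libraries, 10 of the 11 long genes had a log2 change above 0 with FICZ and 10 with tryptamine. These counts were 3 and 4 without control replicate 3.

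Among the 6 Scd2 entries, which share reads, this difference did not follow length. Single-exon entries of 1849 and 2164 nt had a log2 difference of 0.36 and 0.31 in control replicate 3 from the mean of the other controls, a 6-exon entry of 2123 nt had -2.07, and the longest entry, of 5453 nt, had -0.40. Over control replicates 1 and 2, the 6 Scd2 entries ran only from -0.08 to -0.03 with FICZ and from 0.09 to 0.11 with tryptamine. In the authors' deposited table, a single entry among the 6 of Scd2 is higher with an adjusted p under 0.05 after FICZ, and so is a single one after tryptamine. Among entries of all lipid genes, the authors' deposited table has 3 higher and 13 lower of 347 after FICZ (0.865% and 3.75%, against 2.38% and 3.23% of all transcripts), and 1 higher and 0 lower of 347 after tryptamine (0.288% and 0%, against 0.393% and 1.05% of all transcripts). Of the 13 lower entries, which share reads within a gene, 8 are of Plin2, 3 of Pparg, 1 of Fasn and 1 of Scd1. The best-counted Pparg entry had 22 counts in control replicate 1 and 0 in the other controls.

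**Figure D4:**
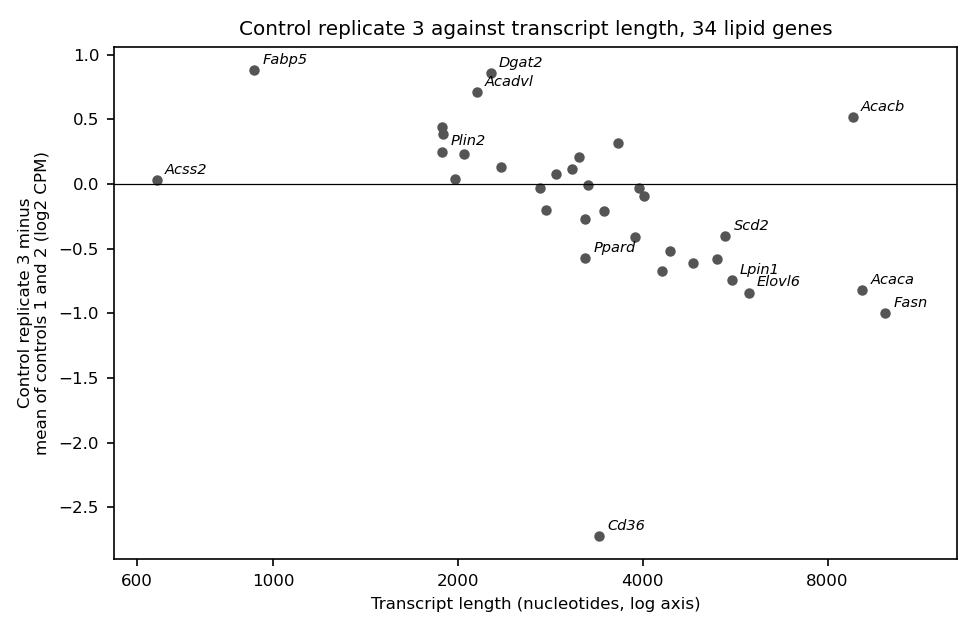
log2 CPM of control replicate 3 minus the mean of control replicates 1 and 2 (vertical axis) against transcript length in nucleotides on a log axis, 1 point for each of 34 lipid genes. Long transcripts lie low, down to -1.0 for Fasn, short ones such as Fabp5 lie at up to 0.88, Acacb is the long gene above 0, and Cd36 at -2.72 had few counts.

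The wider pathway was read from 161 further lipid genes in 6 lists, of which 148 are in the tables and 111 were tested. By edgeR without length correction 0 of the 111 passed in any comparison, with all 9 libraries or without control replicate 3. With FICZ against tryptamine and without control replicate 3, 1 passed as lower with length-corrected offsets in edgeR, against 0.032% of all genes, and 1 as lower in DESeq2, against 0.0719%. Unadjusted p-values under 0.05 with all 9 libraries were found for 3 higher and 7 lower with FICZ against control, against 3.52% and 4.63% of all genes. They were found for 2 higher and 3 lower with tryptamine against control (2.09% and 3.04% of all genes), and for 0 higher and 3 lower with FICZ against tryptamine (0.745% and 0.98%). DESeq2's Wald test with all 9 libraries called 0 in each. Among 20 regulators of lipid synthesis and PPAR signalling, Nr1h4, the bile acid receptor gene FXR, had 22.1, 22.1 and 21.1 CPM with FICZ, 19.8, 19.1 and 20.4 CPM with tryptamine and 17.7, 16.5 and 14.6 CPM in controls. Its log2 change was 0.42 with FICZ (adjusted p = 0.574, edgeR) and 0.28 with tryptamine (adjusted p = 0.741). Insig2, which holds SREBP precursors in the endoplasmic reticulum, had a log2 change of 0.30 with FICZ (adjusted p = 0.6), and Prkaa1, the catalytic subunit of AMP kinase, one of 0.33 with tryptamine (adjusted p = 0.741).

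Insig1, a target of SREBP that restrains it, had 21.6, 19.9 and 18.9 CPM with FICZ and 26.3, 28.8 and 25.8 CPM with tryptamine, against 26, 21.1 and 20.6 CPM in controls. All FICZ libraries lay below all tryptamine libraries. The log2 difference without control replicate 3 was -0.42 (adjusted p = 0.292, edgeR). Nr1h3, the liver X receptor gene, had a log2 difference of -0.51 in the same comparison with all 9 libraries (adjusted p = 1, edgeR).

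Of the other lists, 17 synthesis and elongation genes, 24 of mitochondrial oxidation, 19 of peroxisomal and microsomal oxidation, 19 of droplets and glycerolipids and 12 of uptake and lipoproteins were tested. With FICZ against control and all 9 libraries, the smallest unadjusted p-values belonged to Ptplb (log2 -0.29) and Mcat (-0.35) of synthesis, Acot13 (-0.45) and Etfb (-0.37) of mitochondrial oxidation, Phyh (-0.46) and Acox2 (-0.51) of peroxisomal oxidation, Mogat2 (-0.31) and Agpat4 (-1.32) of glycerolipids, and Dbi (-0.40) and Vldlr (0.21) of uptake. Their adjusted p-values were 0.6 to 0.616 (edgeR). Acot13 and Dbi were highest in control replicate 3, and without it their log2 changes were -0.19 and -0.04. Mogat2, which acylates monoacylglycerol, had 57.7, 62.4 and 56.8 CPM with FICZ, 54.7, 63.8 and 61.6 CPM with tryptamine and 72.6, 69.2 and 77.3 CPM in controls, with log2 changes of -0.31 with FICZ and -0.28 with tryptamine. As in Plin2, all treated libraries lay below all controls.

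With tryptamine against control and all 9 libraries, genes with the smallest unadjusted p-values in these lists were Idh1 (log2 0.18) and Acot7 (-0.21), Acot13 (-0.47) and Etfb (-0.36), Acox2 (-0.43) and Amacr (-0.27), Mogat2 and Agpat5 (-0.24), and Dbi (-0.38), all with an adjusted p of 0.741 (edgeR). With FICZ against tryptamine they were Ptplb (-0.25) and Mlycd (-0.53), Pdk4 (0.68), Phyh (-0.36) and Hacl1 (-0.74), Agpat4 (-0.87) and Soat1 (0.20), and Slc27a3 (0.94), all with an adjusted p of 1 (edgeR). Idh1 supplies cytosolic NADPH, Mlycd breaks down malonyl-CoA and Pdk4 restrains the use of pyruvate, and none of the 3 passed.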

How the data were processed

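Per the file headers, the deposited tables hold counts of reads for each transcript and library as whole numbers, together with the authors' p-values, adjusted p-values and log2 fold changes. The submitters' processing notes name DESeq. For the aligner, counting rule, build and annotation, nothing is given in the sources used here. A deposited list of higher genes adds the authors' mean log2 changes.

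Each table lists 189660 transcripts, of which 162706 carry a gene ID. The 26954 without one held 3.579 to 4.254% of counts and were left out. Of 5653 entries naming several loci, 827 were assigned by RefSeq accession. Transcripts of a gene share reads, so the one with the highest mean count stands for it. The count columns repeated between tables were identical in 9 of 9 libraries.

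All 9 libraries entered 1 fit in edgeR 4.0.16 (R 4.3.3, TMM, filterByExpr, group as the only term, quasi-likelihood test). Genes passed at a Benjamini-Hochberg adjusted p under 0.05 over all genes tested. SE is that of the log2 change, and CPM uses the effective library size. The test was checked on simulated data with a fixed, low spread, larger log2 changes than most here and no library like control replicate 3. That check therefore does not cover small changes or the spread of all 9 libraries. Alternatives were leaving out each library, DESeq2 1.42.0 size factors and its Wald test, 2 other filters on low counts, the 6 libraries of a pair, the replicate number as a block, and sums over transcripts. A length correction and 2 tests without control replicate 3 were added after seeing the data. Named genes are Plin2, the highest gene of each role, the 5 smallest p-values of each comparison in either fit, and 2 genes per further list and comparison, of which 2 genes are not reported here. Fasn, Fabp5 and Acsl3, also given by library, fall outside this rule and were picked with their values in view. The genes and lists were chosen with earlier results of these data known.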

Additional observations from a re-analysis of the deposited data

How the results depend on the processing

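Across 19 alternatives, Plin2 with FICZ kept a negative log2 change, from -0.43 to -0.28, with adjusted p-values from 0.00134 to 0.834. The count of lipid genes that passed in FICZ against control was 0 by edgeR with all 9 libraries. It was 1, Plin2, under DESeq2's Wald test with all 9 libraries and without control replicate 3. Length-corrected offsets without control replicate 3 also gave 1, Plin2. Leaving out 1 library at a time in edgeR gave 0 to 1, with 1 only without control replicate 3. For the other 2 comparisons the count was 0 in every alternative. Of the further lipid genes, 1 passed as lower in FICZ against tryptamine under DESeq2 without control replicate 3 and 1 under length-corrected offsets without it. The cause was not tested.

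Directions that turned belong to log2 changes that did not pass in any of these fits. In FICZ against control, leaving out 1 library gave -0.21 to 0.02 for Acadl, -0.10 to 0.15 for Acly, -0.12 to 0.15 for Scd1 and -0.05 to 0.16 for Scd2. Under DESeq2 without control replicate 3 these 4 were 0.02, -0.10, -0.12 and -0.05, under length-corrected offsets without it 0.02, -0.11, -0.13 and -0.06, and with all 9 libraries length-corrected offsets gave -0.04, -0.06 and -0.09 for Acly, Scd1 and Scd2. In tryptamine against control, leaving out 1 library gave -0.19 to 0.04 for Acadl, -0.05 to 0.23 for Scd1 and -0.02 to 0.06 for Elovl1. DESeq2 and length-corrected offsets without control replicate 3 gave 0.04 for Acadl and -0.05 for Scd1, and length-corrected offsets gave -0.01 for Acly. In FICZ against tryptamine, leaving out 1 library gave -0.04 to 0.01 for Acsl5, -0.02 to 0.26 for Acss2 and -0.07 to 0.17 for Lpin1.

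Deviations of libraries with equal replicate numbers correlated weakly, at -0.0581 to 0.117. In FICZ against tryptamine these correlations were 0.0534, 0.043 and 0.117. Unequal replicate numbers were not compared, so whether the libraries are paired was not settled. With the replicate number as a block, 0 lipid genes passed, Plin2 had a log2 change of -0.38 with FICZ (adjusted p = 0.626, edgeR), and 4 genes of all passed in FICZ against control, against 14 without the block.

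There were 3 libraries a group, and 2 controls where control replicate 3 is left out. A gene can then miss the adjusted threshold although its libraries do not overlap. Scd2 did so in FICZ against tryptamine, where 5.72% of all genes lay wholly lower. Whether such a separation is a small change was not tested. Genes at a few counts (Cd36, Ppara, Pparg, Gpam, Angptl4, Fabp1) give no usable comparison.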
